A study of Mus musculus with 12 samples.

Results

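The RANK, lymphotoxin and CD40 genes were followed on 12 arrays of day 7 thymic epithelium/stroma from FCG mice, in which the gonads and the sex chromosomes are inherited apart. The set was put together by name, with earlier results of these data known, as the tumor necrosis factor (TNF) family ligands and receptors known to drive medullary thymic epithelium, together with genes of the noncanonical NF-κB pathway. It held 10 genes, Tnfsf11, Tnfrsf11a, Tnfrsf11b, Lta, Ltb, Ltbr, Cd40, Cd40lg, Relb and Traf3. Of these, 9 had a probe set with their symbol alone, out of 19938 genes so named on the array, and each was measured by 1 probe set. Traf3, an adaptor whose loss frees the noncanonical pathway, was not analysed here. FCG mice on a C57BL/6J background carry a Y chromosome without Sry and, in gonadal males, an autosomal Sry transgene. XYM (2 arrays, numbered 1 and 9 in the labels) had testes and an XY complement, and XXM (4 arrays, numbers 2, 5, 6 and 10) had testes and an XX complement. XYF (3 arrays, numbers 4, 8 and 12) had ovaries and an XY complement, and XXF (3 arrays, numbers 3, 7 and 11) had ovaries and an XX complement. The labels name no treatment of the pups, and the study describes none for these arrays. Every gonadal male carried the transgene, so that testes and transgene cannot be told apart. The labels do not say how many pups an array represents, and p-values measure only the spread between these arrays, whose number limits the precision.

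RANK, lymphotoxin beta receptor and CD40 are TNF receptors on thymic epithelial cells. Their ligands come mainly from developing thymocytes, lymphoid tissue inducer cells and other lymphocytes, and binding frees the kinase NIK from TRAF3, so that p100 is processed to p52 and RelB/p52 enters the nucleus. Mice that lack parts of this pathway have a poorly formed thymic medulla and fewer cells with Aire, the regulator that lets medullary epithelium display antigens of other tissues. In whole stroma a lower signal can stand for fewer cells of a type or for less RNA per cell, and these cannot be told apart.

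Promoters of Tnfrsf11a and Ltbr, receptors compared in detail here, and of Ltb, a subunit of the ligand of Ltbr, are shown to compare their NF-κB-type letters. The 250 bases before the start site were read from RefSeq (assembly GRCm38.p6), which gave a promoter for 6 of the 10 genes. Capitals mark the letters GGG, any 5 bases and CC, searched on both strands, with overlapping matches run together. All 6 promoters held it, as did 45.8% of 32851 promoters of the same length, so a match describes letters and not a binding site. Tnfrsf11a is at chr1:105780473-105780722 on the plus strand, Ltbr at chr6:125313886-125314135 on the minus strand and Ltb at chr17:35194257-35194506 on the plus strand, each printed 5′ to 3′ along its gene.
Tnfrsf11a: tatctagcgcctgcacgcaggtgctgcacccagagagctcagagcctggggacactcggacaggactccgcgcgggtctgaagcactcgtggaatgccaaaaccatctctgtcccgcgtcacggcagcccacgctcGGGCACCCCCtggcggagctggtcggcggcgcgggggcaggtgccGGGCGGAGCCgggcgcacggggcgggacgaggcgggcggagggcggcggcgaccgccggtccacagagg
Ltbr: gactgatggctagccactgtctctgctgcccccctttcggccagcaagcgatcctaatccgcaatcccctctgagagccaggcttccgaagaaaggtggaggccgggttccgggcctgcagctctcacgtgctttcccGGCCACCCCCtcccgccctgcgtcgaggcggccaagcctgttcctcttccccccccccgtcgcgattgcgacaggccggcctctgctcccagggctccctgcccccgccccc
Ltb: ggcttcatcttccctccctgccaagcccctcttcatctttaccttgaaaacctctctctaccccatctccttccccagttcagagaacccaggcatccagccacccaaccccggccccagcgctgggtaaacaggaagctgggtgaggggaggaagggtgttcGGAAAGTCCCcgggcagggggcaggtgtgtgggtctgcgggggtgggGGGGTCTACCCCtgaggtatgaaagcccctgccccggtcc
The Ltb stretch GGAAAGTCCC began 87 bases before the start site, and 3 further matches overlapped each other, the first of them 40 bases before it. In Tnfrsf11a the matches began 114 and 69 bases before the start site, and in Ltbr the match began 112 bases before it.

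The values were linear intensities of 35556 probe sets, with array medians of 327.5 to 345.5, and Pearson correlations between arrays of 0.961 to 0.980 on the log2 scale. Signals of Xist, Eif2s3y and Sry matched the labelled genotype on all 12 arrays. There was no detection call, and a rough background of 309.5 was taken from 1035 probe sets of olfactory receptors, as their 95th percentile. Of the 9 measured genes, 7 had a mean signal above it, whereas Lta (mean 229) and Cd40lg (mean 204) lay below. Tnfrsf11b (mean 314) lay barely above it. All 9 measured markers of thymic epithelium lay above this background, but so did all 10 measured thymocyte markers, although the study describes repeated washing to remove thymocytes. Arrays numbered 1 to 4, 5 to 8 and 9 to 12 differed from each other more than the genotypes did for several of these genes, and values within these sets of numbers are given beside the results. What the numbers stand for is not stated. Differences are log2 values from limma, with p-values adjusted by the Benjamini-Hochberg method across the 35556 probe sets, and a threshold of 0.05 was used.

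**Figure D1:**
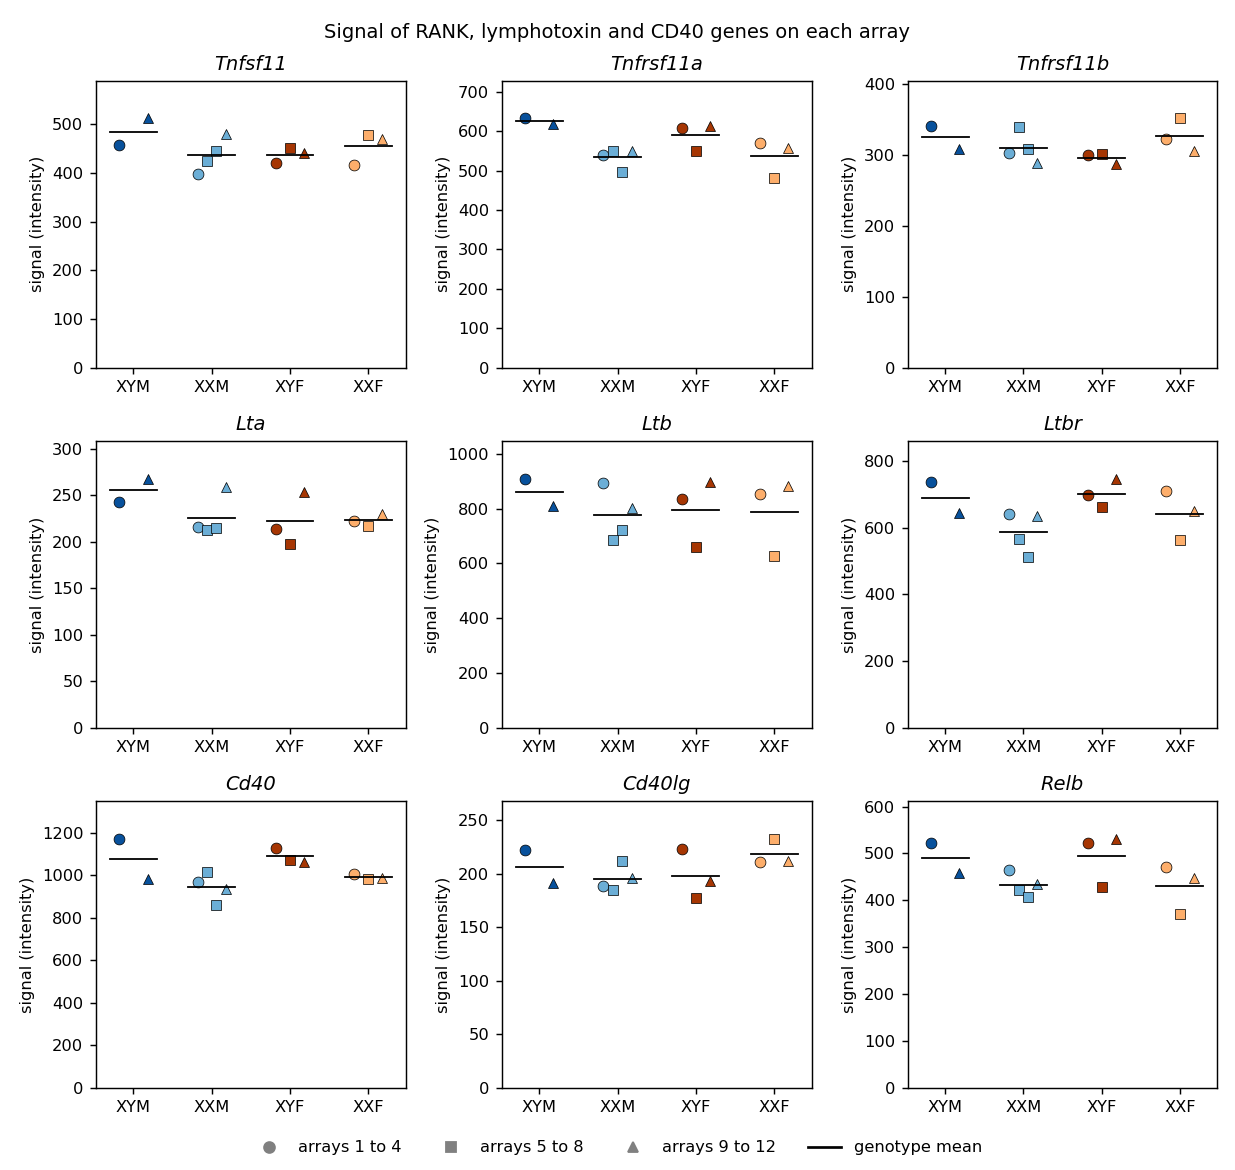
Signal (intensity, axis from 0) of the 9 measured genes on each array, by genotype; marker shapes give the array-number sets and lines the genotype means. For Tnfrsf11a both XYM arrays lie above every XX array, and for Ltb the arrays 5 to 8 lie below all others.

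Tnfsf11 encodes RANKL, the ligand of RANK, made in the neonatal thymus by lymphoid tissue inducer and T cells. Its signal was 458 and 512 on the XYM arrays, and 398, 424, 445 and 479 on the XXM arrays. It was 420.5, 452 and 440.3 on the XYF arrays, and 418, 478 and 470.3 on the XXF arrays. Both XYM arrays lay above all 3 XYF arrays and 1 of them above every XX array, while the other genotype pairs overlapped. Arrays 1 to 4 averaged 423.5, arrays 5 to 8 averaged 449.96 and arrays 9 to 12 averaged 476. These set means spanned a wider range than the XY and XX means, 457 ± 34.3 (SD, n = 5) on XY arrays and 445 ± 32.4 (SD, n = 7) on XX arrays. The log2 difference was 0.05 (SE 0.07) for XY minus XX and 0.04 (SE 0.07) for male minus female (limma, adjusted p = 1.00 and 0.985).

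Tnfrsf11a encodes RANK itself, the receptor through which RANKL acts on medullary epithelial precursors. Its signal was 633 and 619 on the XYM arrays, against 539, 549.8, 498 and 551 on the XXM arrays. It was 607, 550.1 and 613 on the XYF arrays, against 569, 482 and 556 on the XXF arrays. The XY arrays were thus mostly the higher ones: 4 of the 5 lay above every XX array, XYF array 8 being the exception, and 4 of the 7 XX arrays lay below every XY array. The mean was 604 ± 31.8 (SD, n = 5) on XY arrays and 535 ± 32.3 (SD, n = 7) on XX arrays. The log2 difference, XY minus XX, was 0.19 (SE 0.06, 95% interval 0.04 to 0.33). Its unadjusted limma p was 0.0143, but it did not pass over all probe sets (limma, adjusted p = 1.00). Gonadal males and females had nearly the same mean, 565 ± 51.2 (SD, n = 6) in males and 563 ± 47.4 (SD, n = 6) in females. In order of mean, XYM stood above XYF, XXF and XXM, and of the neighbors in this order only XYM and XYF did not overlap. With 2 and 3 arrays this is weak evidence, and the share of all probe sets that do so was not counted.

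Tnfrsf11b encodes osteoprotegerin, a soluble decoy that binds RANKL and keeps it from RANK. Its signal was 341 and 309 on the XYM arrays, against 303, 339.6, 309 and 289.5 on the XXM arrays. It was 301, 302 and 287 on the XYF arrays, against 323, 352 and 307 on the XXF arrays. XYF arrays all lay below XXF arrays, while XYM arrays lay within the range of, or just above, XXM arrays. The log2 difference was 0.07 (SE 0.09) for XYM minus XXM and -0.14 (SE 0.09) for XYF minus XXF. The interaction, XYM minus XXM less XYF minus XXF, was 0.21 (SE 0.13), with an unadjusted limma p of 0.129 and an adjusted p of 1.00. With the array-number sets as a block the interaction was 0.26 (SE 0.09), with an unadjusted limma p of 0.0143 and an adjusted p of 0.765. At the same setting that of Tnfsf11 was 0.23 (SE 0.09), with an unadjusted limma p of 0.0286 and an adjusted p of 0.765.

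Lta and Ltb encode the subunits of lymphotoxin, which as a membrane heterotrimer binds the lymphotoxin beta receptor, and they lie close together on chromosome 17 with Tnf and a microRNA gene between them in RefSeq. Lta had a signal of 243 and 268 on the XYM arrays and of 216, 212, 215 and 259 on the XXM arrays. On the XYF arrays it was 214, 198 and 254, and on the XXF arrays 222, 217 and 229. Being below the olfactory receptor reference, these signals cannot be told from background. Its log2 difference, male minus female, was 0.11 (SE 0.08), the highest of the 9 genes, with an unadjusted limma p of 0.190 and an adjusted p of 0.985.

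Ltb had a signal of 910.4 and 812 on the XYM arrays, against 894, 686, 723 and 801 on the XXM arrays. On the XYF arrays it was 834, 659 and 896.5, against 852, 627 and 883 on the XXF arrays. The spread of Ltb followed the array numbers: all 4 arrays numbered 5 to 8 lay between 627 and 723, and the other 8 arrays between 801 and 910.4. The sets held 86.2% of its variance on the log2 scale. The mean was 822 ± 100.1 (SD, n = 5) on XY arrays and 781 ± 104 (SD, n = 7) on XX arrays. The log2 difference, XY minus XX, was 0.09 (SE 0.11), with an adjusted limma p of 1.00, and it was -0.0026 within arrays 1 to 4, -0.04 within arrays 5 to 8 and 0.02 within arrays 9 to 12. With the sets as a block it was -0.0017 (SE 0.06).

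Ltbr encodes the receptor of the lymphotoxin heterotrimer. Its signal was 736 and 643 on the XYM arrays, against 640.4, 566, 511 and 634 on the XXM arrays. It was 697, 662 and 747 on the XYF arrays, against 709.7, 562 and 648 on the XXF arrays. Of the 7 XX arrays, 5 lay below every XY array, and XXF array 3 stood among the highest XY arrays. The mean was 697 ± 45.1 (SD, n = 5) on XY arrays and 610.1 ± 67.1 (SD, n = 7) on XX arrays, a log2 difference of 0.19 (SE 0.08) with an unadjusted limma p of 0.0496 and an adjusted p of 1.00. Males averaged 622 ± 76.8 (SD, n = 6) and females 671 ± 64.0 (SD, n = 6). The log2 difference, male minus female, was -0.08 (SE 0.08), the lowest of the 9 genes (limma, adjusted p = 0.985).

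Cd40 encodes CD40, a receptor of epithelial and antigen-presenting cells that acts together with RANK in the medulla. Its signal was 1173 and 985 on the XYM arrays, against 969.9, 1014, 862 and 934 on the XXM arrays. It was 1128, 1073 and 1065 on the XYF arrays, against 1006, 984 and 989 on the XXF arrays. All 3 XYF arrays lay above all 7 XX arrays, and XYM array 1 did so too, while XYM array 9 lay among the XX arrays. The mean was 1085 ± 70.9 (SD, n = 5) on XY arrays and 965 ± 52.6 (SD, n = 7) on XX arrays. The log2 difference was 0.16 (SE 0.06, 95% interval 0.02 to 0.30), with an unadjusted limma p of 0.0299 and an adjusted p of 1.00.

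Cd40lg encodes the ligand of CD40, made chiefly by activated CD4+ T cells, and is the 1 gene of the set on the X chromosome. Its signal was 222 and 192 on the XYM arrays, against 188, 185, 212 and 196 on the XXM arrays. It was 223, 177 and 193 on the XYF arrays, against 211, 233 and 212 on the XXF arrays. The groups overlapped and lay below the olfactory receptor reference. The log2 difference, XY minus XX, was -0.04 (SE 0.08), with a 95% interval of the XY to XX ratio of 0.870 to 1.09 and an adjusted limma p of 1.00. Its interaction was 0.23 (SE 0.15), the highest of the 9 genes, with an unadjusted limma p of 0.154.

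Relb encodes RelB, the NF-κB subunit that carries signals of these receptors to the nucleus. Its signal was 522 and 457 on the XYM arrays, against 465, 423, 407 and 435 on the XXM arrays. It was 522, 429 and 532 on the XYF arrays, against 472, 371 and 448 on the XXF arrays. XYM array 1 and XYF arrays 4 and 12 lay above every XX array, and 3 of the 7 XX arrays lay below every XY array. The mean was 492 ± 46.1 (SD, n = 5) on XY arrays and 432 ± 35.0 (SD, n = 7) on XX arrays, a log2 difference of 0.19 (SE 0.08) with an unadjusted limma p of 0.0467 and an adjusted p of 1.00.

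**Figure D2:**
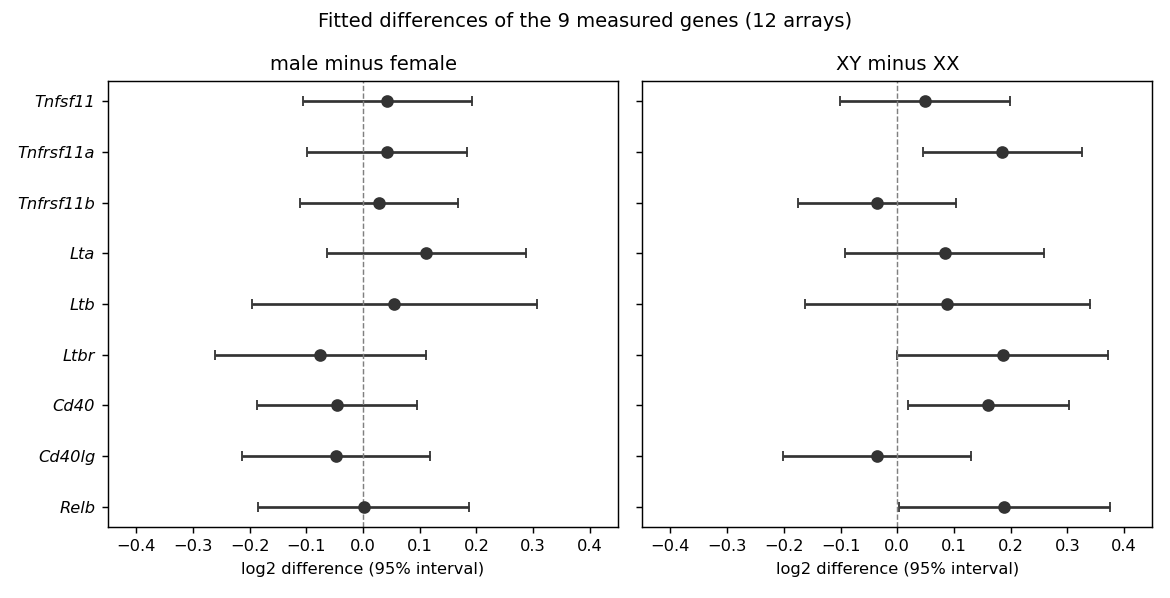
Log2 differences of the 9 measured genes with 95% intervals from limma, male minus female on the left and XY minus XX on the right. The intervals of Tnfrsf11a, Ltbr, Cd40 and Relb lie above 0 for XY minus XX, before any adjustment over probe sets, and all 9 intervals span 0 for male minus female.

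Across the set, the 3 signalling receptors and Relb had higher mean signals on XY than on XX arrays, without passing the test over all probe sets. In limma, 0 of the 9 genes passed an adjusted p under 0.05 for XY minus XX (13 of 35556 probe sets did, 0.0366%). At an unadjusted p under 0.05 there were 4, Tnfrsf11a, Ltbr, Cd40 and Relb, all above 0, against 2.55% of all probe sets in either direction and 1.26% above 0. None of the 4 ligand genes was among them. However, Lta and Cd40lg lay below the olfactory receptor reference, and Ltb had the largest SE of the 9 genes, 0.11. Of the 9 differences, 7 lay above 0 with a median of 0.09, where 52.6% of all probe sets lay above 0 with a median of 0.01. For none of the 9 genes did the XY and XX arrays separate completely, as they did for 0.166% of probe sets. The 95% intervals of the XY to XX ratio ran from 0.870 to 1.30 over the 9 genes. The 4 genes were measured on the same arrays and are not 4 independent results. Fits without array 1 or 9 leave 1 XYM array, and their counts are not listed here. Among the other alternatives, the count was 1 with array 4 (XYF), 6 (XXM), 7 (XXF) or 11 (XXF) left out. In these fits 894, 895, 696 and 1324 of the 35556 probe sets were under 0.05, against 908 with all arrays. The count was 2 with array 5 (XXM) or 12 (XYF) left out, with the two-factor test of the methods or with array weights. There 704, 720, 1071 and 764 probe sets were under 0.05. Tnfrsf11a kept an unadjusted p under 0.05 in each of these fits, without passing over all probe sets. Its difference ran from 0.15 to 0.21 over the 22 alternatives. They reuse the same arrays, and some refit the same values, so they are not independent support.

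The log2 difference of Tnfrsf11a, XY minus XX, was 0.16 within arrays 1 to 4, 0.11 within arrays 5 to 8 and 0.15 within arrays 9 to 12. In the same order of sets, that of Relb was 0.16, 0.10 and 0.16, that of Cd40 0.22, 0.18 and 0.09, and that of Ltbr 0.09, 0.28 and 0.11. All 12 of these values lay above 0, and arrays 5 to 8 held only 1 XY array, XYF array 8. These genes were picked by their difference over the same arrays, so the signs within sets are not a separate test of it. With the sets as a block the differences were 0.15 for Tnfrsf11a, 0.13 for Relb, 0.15 for Cd40 and 0.13 for Ltbr, with unadjusted limma p of 0.00991, 0.0286, 0.0214 and 0.0430. None passed over all probe sets (adjusted p = 0.718 in limma for each), and in that fit 6.9% of probe sets had an unadjusted p under 0.05, and 4.14% did so above 0.

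Markers of thymocytes stood the other way. The summed signal of 10 measured thymocyte markers of 11 listed was 35514 to 37088 on XY arrays, against 37387 to 41206 on XX arrays, without overlap. All 10 lay below 0 for XY minus XX, with a median of -0.12, against 52.6% of all probe sets above 0. At an unadjusted limma p under 0.05 there was 1, Rag2, against 2.55% of probe sets, and with the sets as a block there were 4, Rag2, Dntt, Cd3e and Cd4, all below 0, against 6.9%. The summed signal of the 9 thymic epithelium markers was 26433 to 30725 on XY arrays, against 24527 to 31521 on XX arrays, and that of 8 macrophage and dendritic cell markers 3855 to 4968 on XY arrays, against 3850.4 to 4649 on XX arrays. The endothelial sum, over 4 markers, was 5606 to 7280.1 on XY arrays, against 5066 to 6306 on XX arrays, and the fibroblast sum, over 5 markers, 7344 to 9608 on XY arrays, against 7317 to 10797 on XX arrays. Of the B cell markers, Cd79a, Ms4a1 and Pax5 lay below the olfactory receptor reference, as did Ccr6, Il23r and Ncr1 of the innate lymphoid list, Il17a of the γδ T cell list and Itgax and Flt3 of the macrophage and dendritic cell list. The B cell sum of 5 markers was 1481 to 1819 on XY arrays, against 1617 to 1776 on XX arrays. The innate lymphoid sum of 6 markers was 2572 to 3245 on XY arrays, against 2578 to 3308 on XX arrays, and the γδ T cell sum of 4 markers 1524 to 1662 on XY arrays, against 1543 to 1819 on XX arrays. For XY minus XX, 7 of 9 epithelial, 4 of 4 endothelial and 6 of 8 macrophage and dendritic cell markers lay above 0. So did 2 of 5 fibroblast, 3 of 5 B cell, 3 of 6 innate lymphoid and 1 of 4 γδ T cell markers. At an unadjusted limma p under 0.05 there was 1 macrophage and dendritic cell marker above 0, against 2.55% of probe sets in either direction. Below 0 there were 1 fibroblast and 1 B cell marker. With the sets as a block these 3 lists gave the same numbers in the same directions. In that fit 2 epithelial markers were also under 0.05, both above 0, against 6.9% of probe sets. The part of these markers in the differences of the receptors and Relb was not tested.

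**Figure D3:**
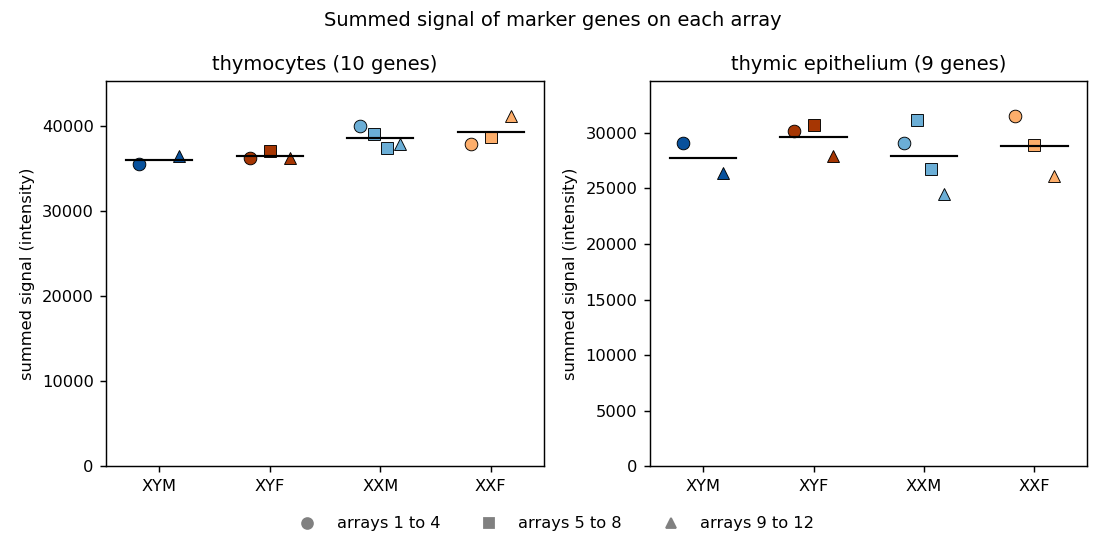
Summed signal (intensity, axis from 0) of thymocyte and thymic epithelium markers on each array, by genotype, with genotype means as lines and array-number sets as marker shapes. The 5 XY arrays lie at 35514 to 37088 for thymocyte markers, all below the 7 XX arrays, whereas the epithelial sums overlap.

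For gonadal sex, the groups were hardly apart. In limma, 0 of the 9 genes passed for male minus female after adjustment (0.00281% of probe sets, 1 in all) and 0 had an unadjusted p under 0.05, against 3.03% of probe sets. Adjusted p ran from 0.985 to 0.999. The differences ran from -0.08 for Ltbr to 0.11 for Lta, with a median of 0.03. Of the 9 genes, 6 lay above 0, against 51.3% of all probe sets. The 95% intervals of the male to female ratio reached from 0.835 to 1.24 over the 9 genes. Male and female arrays overlapped for all 9 genes, and they did not overlap for 0.0731% of all probe sets. With the sets as a block, 11.5% of probe sets and again 0 of the 9 genes had an unadjusted limma p under 0.05.

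By mean signal XYM stood first of the genotypes for Tnfsf11, Tnfrsf11a, Lta and Ltb, and XYF for Ltbr, Cd40 and Relb. XXF stood first for Tnfrsf11b and Cd40lg, while XXM stood last for 6 of the 9 genes. These means take no account of the array-number sets, over which the genotypes were unevenly spread. Arrays 5 to 8 held XXM arrays 5 and 6 but no XYM array. They had the lowest set mean for Tnfrsf11a, Lta, Ltb, Ltbr, Cd40 and Relb. Genotypes next to each other in the orders by mean overlapped for all 9 genes, except XYM and XYF for Tnfrsf11a. Those genotypes have 2 and 3 arrays, and the share of all probe sets without such overlap was not counted. The genotype pairs hold one factor fixed. Between males of differing complement, XYM minus XXM, all 9 genes lay above 0 with a median of 0.18, against 51.3% of all probe sets. With the array-number sets as a block 8 of 9 did, with a median of 0.12 and Ltb at -0.025. Without the block Tnfrsf11a had the 1 unadjusted limma p under 0.05, against 3.41% of probe sets. Its difference was 0.23 (SE 0.09), with an unadjusted limma p of 0.0313 and an adjusted p of 0.977. Between females of differing complement, XYF minus XXF, 5 of 9 lay above 0 with a median of 0.02, against 51.7% of all probe sets. In that pair 0 had an unadjusted p under 0.05 in limma, against 0.951% of probe sets. There the receptors and Relb were at 0.14 for Tnfrsf11a, 0.14 for Ltbr, 0.13 for Cd40 and 0.20 for Relb, with SEs of 0.09 to 0.12. Of the ligands, Cd40lg was at -0.15 (SE 0.10) and Tnfsf11 at -0.05 (SE 0.09) in that pair. For XYM minus XYF 6 of 9 lay above 0, against 50.6% of all probe sets. For XXM minus XXF 2 of 9 did, against 54.0%, with the lowest value, -0.16 (SE 0.10), for Cd40lg. In these pairs 0 genes had an unadjusted p under 0.05 in limma, against 3.14% and 1.45% of probe sets. No gene passed after adjustment in any pair, where 0.0197% (XYM minus XXM), 0.0169% (XYF minus XXF), 0.00562% (XYM minus XYF) and 0.00281% (XXM minus XXF) of probe sets did. With the sets as a block, 2 genes had an unadjusted limma p under 0.05 for XYM minus XXM, Tnfsf11 (0.18) and Tnfrsf11a (0.16), both above 0, against 9.73% of probe sets. For XYF minus XXF there were 3, Relb (0.20) and Tnfrsf11a (0.14) above 0 and Tnfrsf11b (-0.14) below 0, against 3.27%. For XYM minus XYF there were 2, Tnfrsf11b (0.17) and Tnfsf11 (0.16), both above 0, against 12.5%, and for XXM minus XXF 0, against 4.02%. None passed after adjustment with the block. XYM had 2 arrays, so that its pairs lean most on the spread shared by all genotypes.

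The interaction asks whether the XY minus XX difference was unlike in males and females. It lay above 0 for 8 of 9 genes with a median of 0.13, against 49.2% of all probe sets. However, 0 passed after adjustment and 0 had an unadjusted limma p under 0.05, against 0% and 1.54% of probe sets. The lowest unadjusted p was 0.129, for Tnfrsf11b. With the sets as a block only 6 of 9 lay above 0, with a median of 0.04, against 50.6% of all probe sets. In that fit Tnfsf11 and Tnfrsf11b had an unadjusted limma p under 0.05, as did 6.4% of probe sets. The interaction of Tnfrsf11a was 0.09 (SE 0.13) and that of Relb -0.02 (SE 0.17). The F test over the 4 genotypes called 0 of 9 genes in limma, against 0.0281% of probe sets after adjustment and 1.99% before, and its lowest unadjusted p was 0.0831, for Tnfrsf11a.

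Of 21 signalling partners downstream of these receptors, 19 were measured and 0 passed an adjusted p under 0.05 in any comparison in limma. For XY minus XX, 12 of 19 lay above 0 with a median of 0.01, against 52.6% of all probe sets, and 1 had an unadjusted p under 0.05, against 2.55%, with or without the sets as a block (6.9% of probe sets with it). This was Nfkb2, which encodes p100, the partner of RelB that the pathway processes to p52. Nfkb2 had a signal of 1123 ± 55.1 (SD, n = 5) on XY arrays and 993 ± 72.1 (SD, n = 7) on XX arrays, a log2 difference of 0.18 (SE 0.07) with an unadjusted limma p of 0.0241. Birc3, which encodes the ubiquitin ligase cIAP2 of the TRAF complex, had 1094 ± 55.1 on XY arrays and 1004 ± 68.4 on XX arrays (log2 difference 0.12), with an unadjusted limma p of 0.100. Nfkbia, the inhibitor IκBα of the canonical pathway, had 1756 ± 137 on XY arrays and 1651 ± 98.9 on XX arrays. Tab2 and Map3k7, which encode the adaptor TAB2 and the kinase TAK1 of the canonical arm, had 2594 ± 183 and 1487 ± 185 on XY arrays, and 2686 ± 106 and 1535 ± 131 on XX arrays. For male minus female 2 of 19 lay above 0, against 51.3% of all probe sets, with a median of -0.02. In that comparison 0 had an unadjusted p under 0.05 in limma, against 3.03%. Tank, a TRAF-binding adaptor, had 1066 ± 123 in males and 1139 ± 108 in females, and Traf2, an adaptor that works with TRAF3, 999 ± 47.8 in males and 979.5 ± 44.9 in females (SD, n = 6 each).

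Of 20 other TNF family genes, 19 were measured, 11 of them above the olfactory receptor reference, and 0 passed after adjustment in any comparison in limma. For XY minus XX, 16 of 19 lay above 0, against 52.6% of all probe sets, with a median of 0.04, and 1 had an unadjusted p under 0.05, against 2.55%. Tnfrsf9, which encodes the costimulatory receptor 4-1BB, had 419.5 ± 26.3 (SD, n = 5) on XY arrays and 371 ± 13.0 (SD, n = 7) on XX arrays, a log2 difference of 0.18 (SE 0.05) with an unadjusted limma p of 0.00620. With the sets as a block there were 2, Tnfrsf9 (0.19) and Tnfsf10 (0.19), against 6.9% of probe sets. Tnfsf10, the death ligand TRAIL, had 665 ± 98.3 on XY arrays and 564 ± 54.8 on XX arrays, with an unadjusted limma p of 0.0613. Cd27, a receptor of T cells, was lower on XY arrays in mean, at 2577 ± 205 against 2759 ± 188 on XX arrays, without passing the test. Tnfrsf1a, the main TNF receptor, had 1300.3 ± 109 on XY arrays and 1248 ± 88.6 on XX arrays, and Tnfrsf14, the receptor HVEM of the ligand LIGHT, 1160.1 ± 101 on XY arrays and 1058 ± 92.8 on XX arrays. For male minus female 0 had an unadjusted p under 0.05 in limma, against 3.03% of probe sets. There Tnfsf10 had 570.4 ± 98.4 in males and 642 ± 67.9 in females, Tnfrsf13c, the BAFF receptor of B cells, 374 ± 34.6 in males and 353 ± 21.8 in females, and Fasl, the Fas ligand, a background-level 114 ± 14.0 in males and 108 ± 5.36 in females (SD, n = 6 each).

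A list of 16 targets and markers held genes of medullary epithelium and of antigen presentation, along with Ctsl, the cathepsin known from cortical epithelium, and 14 of them were measured. All 14, Ctsl included, lay above 0 for XY minus XX, against 52.6% of all probe sets, with a median of 0.10. At an unadjusted limma p under 0.05 there were 3, Aire, Ccl22 and Ciita, against 2.55% of probe sets, and with the sets as a block Ctss joined them to make 4, against 6.9%. Aire had a log2 difference of 0.27 (SE 0.09) with an unadjusted limma p of 0.00840. Ccl22, a chemokine of mature medullary epithelium and dendritic cells, had 594 ± 77.6 on XY arrays (SD, n = 5) and 497 ± 63.9 on XX arrays (SD, n = 7), a log2 difference of 0.27 (SE 0.10) with an unadjusted limma p of 0.0196. Ciita, the activator of MHC class II genes, had 797 ± 37.0 on XY arrays and 703 ± 56.1 on XX arrays, a log2 difference of 0.17 (SE 0.06) with an unadjusted limma p of 0.0235. None passed over all probe sets (adjusted p = 1.00 in limma). Ctsl had 6890.1 ± 782 on XY arrays and 6758 ± 746 on XX arrays, and Krt5, a basal and medullary keratin, 1729.8 ± 155 on XY arrays and 1709 ± 208 on XX arrays. For male minus female 6 of 14 lay above 0, against 51.3% of all probe sets, with a median of -0.01. In that comparison 0 had an unadjusted p under 0.05 in limma, against 3.03%. There Ctss, a cathepsin of antigen-presenting cells, had 540.5 ± 103 in males and 508 ± 40.9 in females, and Cd80, a costimulatory ligand of mature medullary epithelium, 609.7 ± 63.9 in males and 598 ± 40.3 in females (SD, n = 6 each).

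**Figure D4:**
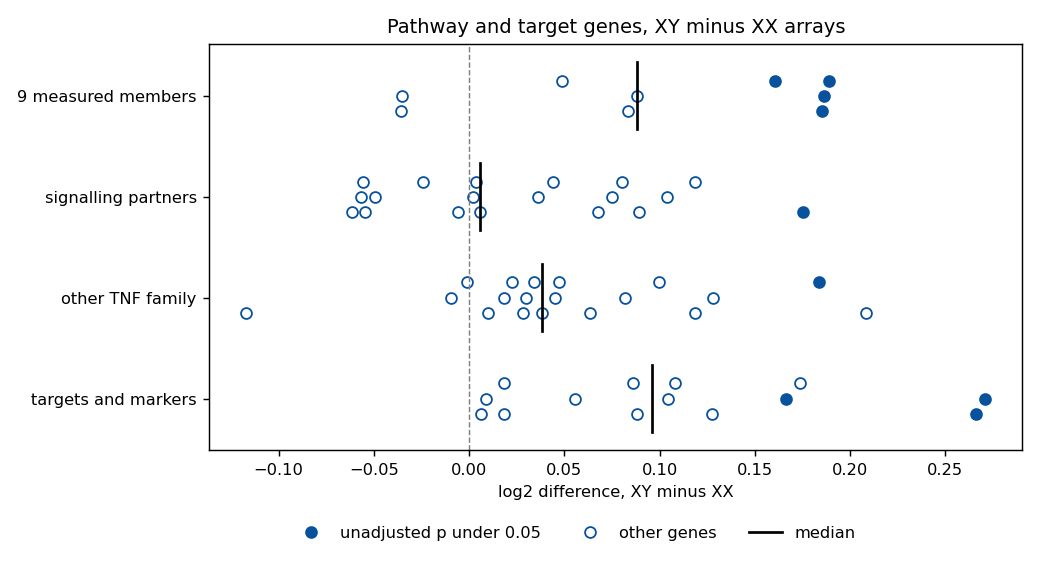
Log2 difference, XY minus XX, of each measured gene of the set and of 3 related lists; filled points have an unadjusted limma p under 0.05, and black lines are medians. The medians are 0.09 for the 9 genes, 0.01 for signalling partners, 0.04 for the other TNF family and 0.10 for the targets and markers, and no point passed after adjustment.

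Receptors, ligands and targets were also compared array by array, as log2 signals over the 12 arrays in 9 pairs named by their roles, with permutation p-values adjusted over the 9. Tnfrsf11a followed Aire closely, with Pearson r = 0.93 and Spearman rho = 0.94 (permutation p = 4.0e-05, adjusted p = 0.00036 for each). Without the 2 arrays farthest from the median of Tnfrsf11a r was 0.94, and after the set means were taken off it was 0.87 (exact permutation within sets, adjusted p = 0.0124). Tnfrsf11a also followed Relb, with r = 0.89 and rho = 0.80 (permutation p = 0.00014 and 0.00312, adjusted 0.00063 and 0.0140), r = 0.79 without the 2 farthest arrays and 0.81 within sets. Cd40 and Aire had r = 0.77 and rho = 0.69 (permutation p = 0.00297 and 0.0172, adjusted 0.00891 and 0.0388) and 0.87 within sets (exact permutation within sets, adjusted p = 0.00749). Without the 2 arrays farthest from the Cd40 median r was 0.57 and no longer passed (adjusted permutation p = 0.157).

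Ltb and Ltbr had r = 0.69 and rho = 0.70 over the 12 arrays (permutation p = 0.0123 and 0.0144, adjusted 0.0277 and 0.0388). Within the array-number sets r was -0.02, so that this relation did not hold there. Both genes had their lowest set mean on arrays 5 to 8, at 674 for Ltb and 575 for Ltbr. Without the 2 arrays farthest from the Ltb median r was 0.83. The other ligand and receptor pairs gave no relation past the threshold in the deposited values. RANKL and RANK, Tnfsf11 and Tnfrsf11a, had r = 0.05 and rho = 0.13 (permutation p = 0.879 and 0.681), and -0.37 without the 2 farthest arrays. RANKL and its decoy, Tnfsf11 and Tnfrsf11b, had r = 0.05 and rho = 0.14 (permutation p = 0.877 and 0.665), 0.01 without the 2 farthest arrays and 0.53 within sets (adjusted p = 0.229). Cd40 and Cd40lg had r = 0.10 and rho = 0 (permutation p = 0.755 and 1.00), and 0.05 without the 2 farthest arrays. Lta had r = 0.52 and rho = 0.47 with Ltb (permutation p = 0.0869 and 0.128, adjusted 0.156 and 0.231), and -0.08 within sets. With Ltbr it had r = 0.34 and rho = 0.25 (permutation p = 0.279 and 0.430), and -0.12 within sets. Without the 2 arrays farthest from the Lta median these were 0.68 and 0.52. After a renewed quantile normalization both passed, Lta with Ltb at r = 0.74 (permutation, adjusted p = 0.0163) and Lta with Ltbr at r = 0.63 (permutation, adjusted p = 0.0399). The part of the cell make-up of each array in these relations was not tested.

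**Figure D5:**
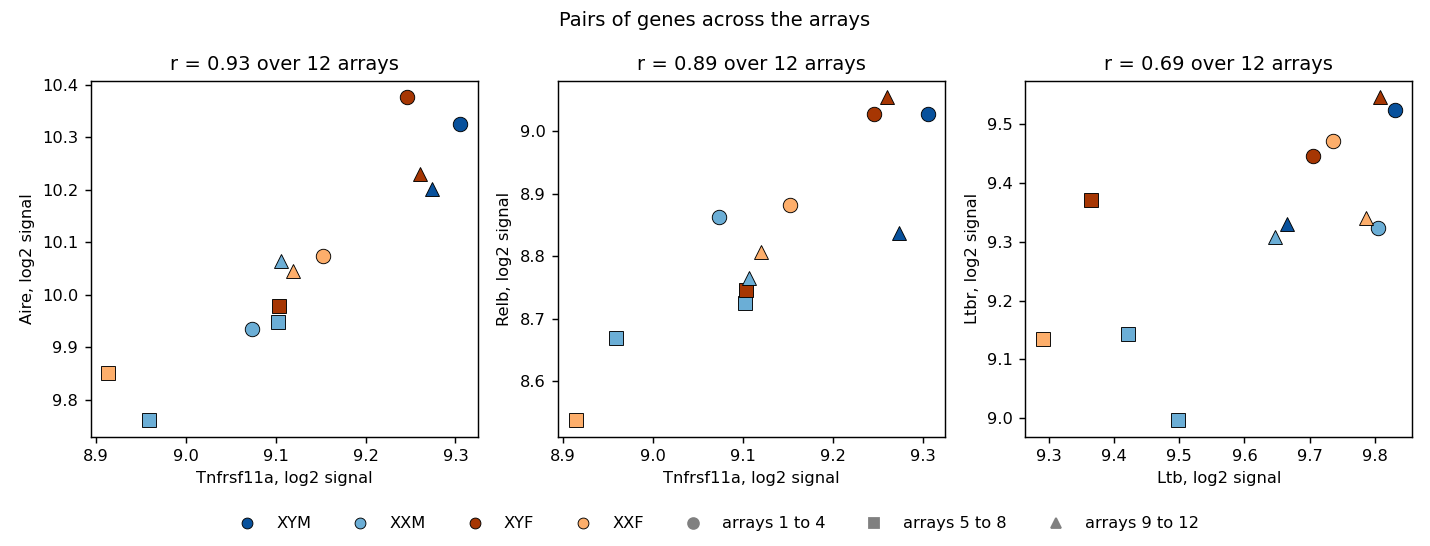
Log2 signal of Aire and Relb against Tnfrsf11a, and of Ltbr against Ltb, on the 12 arrays; colors give the genotype and shapes the array-number sets. XY arrays other than XYF array 8 lie at the upper right for Tnfrsf11a with Aire (r = 0.93), and arrays 5 to 8 lie at the left for Ltb with Ltbr.

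Among 14448 other named genes with a mean signal of at least 200, those most like each gene over the 12 arrays were picked by Pearson r on the log2 scale, as a description. For Tnfrsf11a they were Sema4c (r = 0.96), Nfkb2 (0.93) and Stoml1 (0.93), and with the set means taken off Cdcp1 (0.95), Hhip (0.94) and Cadm1 (0.93). For Ltbr they were Nfkb2, Ncf1 and Tap1 (0.96 each), and with the set means taken off Znfx1, Boc and Ciita (0.96 each). Nfkb2 thus stood beside both receptors. For Relb they were Gpr137b (0.98), Plec (0.97) and Stoml1 (0.95), and with the set means taken off Synpo2 (0.96), Gpr137b (0.95) and Plec (0.94). For Cd40 the same 3 genes led both ways, Slco5a1 (0.96), BC023105 (0.96) and Calcb (0.94), which had 0.96, 0.96 and 0.99 with the set means taken off.

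The ligands had other neighbors. For Tnfsf11 they were Aqp8 (0.96), Cldn6 (0.95) and Lingo3 (0.95), and with the set means taken off Trmo (0.96), ND3 (0.95) and Srms (0.94). For Ltb they were Tspan13 (0.95), Tlr12 (0.95) and Zbtb22 (0.94), and with the set means taken off Pex6 (0.94), Pfkfb3 (0.92) and Cbfa2t3 (0.90). For the decoy receptor Tnfrsf11b they were Lypd1 (0.85), Pdia3 (0.83) and Kif5b (0.81), and with the set means taken off Lyz1 (0.94), Reg3g (0.93) and Ctsc (0.89). No gene recurred between these 3 lists before and after the set means were taken off. Lta and Cd40lg, below the olfactory receptor reference, were not compared in this way.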

How the data were processed

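RNA of day 7 thymic epithelium/stroma was measured on 12 Affymetrix mouse Gene 1.0 ST arrays (2 XYM, 4 XXM, 3 XYF, 3 XXF). The authors deposited linear intensity values, 1 per probe set and array. PLIER and Affymetrix Expression Console 1.1 appear in the submitters' notes on processing, whereas the methods describe RMA and quantile normalization, and PLIER settings are not given in the sources used here. Each value still holds its probes' own background, and compressed or added background would make differences between groups smaller.

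Genes were named from the array annotation, from probe sets with 1 symbol (21789 of 35556), and the brightest probe set stood for a gene. Log2 values of the deposited intensity were fitted in limma 3.58.1 (R 4.3.3, lmFit and eBayes) as 4 genotype means, with contrasts for gonadal sex, chromosome complement, their interaction and single pairs, Benjamini-Hochberg adjustment over all probe sets and a threshold of 0.05. Mean ± SD is on the linear scale. Correlations used 100000 permutations, and 13824 exact ones within sets. The fits were tested on simulated data. Figures were drawn with matplotlib 3.10.9.

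Members and lists were chosen with earlier results of these data known. List genes are named if they were among the up to 3 with the highest signal or with the lowest unadjusted p for sex or complement, and genes of like pattern are the 3 with the highest r. Alternatives were an offset of 16, a renewed quantile normalization, a signal of at least 200, probe sets with 1 symbol, an additive model, trend and robust moderation, the methods' two-way ANOVA, array weights, a mean over probe sets, array-number sets as a block and leaving out each array. Columns without a sample numbered 0.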

Additional observations from a re-analysis of the deposited data

Results flagged for a closer look

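In groups of 4 to 7 arrays, 45 in all over the 9 measured genes, the gap of the highest or lowest array to its nearest neighbor was set against the range of the group. Chance flags about 1 in 20 such groups, and 2 were flagged here, both for the same value. Lta had a signal of 259 on XXM array 10, against 212 to 216 on the other 3 XXM arrays and 212 to 229 on the other 6 XX arrays. It was also high on XYM array 9 (268) and XYF array 12 (254), which belong with array 10 to the arrays numbered 9 to 12, and 229 on XXF array 11 of that set. All these signals were below the olfactory receptor reference of 309.5.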

How the results depend on the processing

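No member and no gene of the 3 lists passed an adjusted p under 0.05 in any limma comparison, under any alternative run (0 in each). The number of members with an unadjusted p under 0.05 for XY minus XX was 4, and 2 with the methods' two-way ANOVA and 2 with array weights; leaving out 1 array gave 1 to 4. The labels give every array a number of its own and thus no replicate number that genotypes share, and the array-number sets were fitted as a block instead. Additive models were not run for the interaction, F and pair results. The following differences, none of them called, changed sign, and the cause was not tested. Not all of them lay near 0 in the fit without a block. There Ltb was at 0.15 for XYM minus XXM, 0.13 for the interaction and 0.09 for XY minus XX. With the array-number sets as a block the log2 difference was -0.017 for Relb (male minus female) and -0.0017 for Ltb (XY minus XX), the interaction -0.047 for Ltb and -0.014 for Ltbr, and the pairs 0.020 for Tnfrsf11a and 0.049 for Ltb (XXM minus XXF) and -0.025 for Ltb (XYM minus XXM). With a renewed quantile normalization the interaction of Relb was 0.012, XYM minus XYF was 0.013 for Ltbr, 0.019 for Cd40 and 0.013 for Relb, and XXM minus XXF was -0.011 for Lta. With array weights the interaction of Relb was 0.041, XYM minus XYF 0.041 for Relb, XXM minus XXF 0.00076 for Tnfrsf11a and -0.011 for Lta, and XYF minus XXF -0.047 for Ltb.

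Leaving out 1 array in turn, male minus female ran between -0.0076 and 0.063 for Tnfrsf11b, -0.023 and 0.10 for Ltb, -0.11 and 0.017 for Cd40, -0.10 and 0.0061 for Cd40lg and -0.050 and 0.049 for Relb. XY minus XX ran between -0.089 and 0.018 for Cd40lg. The interaction ran between -0.0020 and 0.19 for Ltbr, -0.070 and 0.18 for Cd40 and -0.12 and 0.079 for Relb. XYM minus XYF ran between -0.0086 and 0.21 for Ltb, -0.12 and 0.070 for Ltbr, -0.14 and 0.11 for Cd40, -0.039 and 0.17 for Cd40lg and -0.11 and 0.085 for Relb. XXM minus XXF ran between -0.076 and 0.044 for Tnfrsf11a, -0.055 and 0.041 for Lta, -0.17 and 0.080 for Ltb and -0.090 and 0.083 for Relb. XYM minus XXM ran between -0.0017 and 0.14 for Tnfrsf11b and -0.027 and 0.19 for Cd40lg, and XYF minus XXF between -0.12 and 0.064 for Lta and -0.13 and 0.15 for Ltb. With XYM array 1 or 9 left out, the other XYM array was assumed to vary like the arrays of the other genotypes.

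Of the 9 correlations, 4 passed the adjusted threshold, against 3 within array-number sets, 3 without the 2 arrays farthest from the median and 6 after a renewed quantile normalization, where Lta with Ltb and Lta with Ltbr passed too. Within sets r was -0.12 for Lta with Ltbr, -0.018 for Ltb with Ltbr, -0.076 for Lta with Ltb and -0.049 for Cd40 with Cd40lg. Tnfsf11 with Tnfrsf11a had -0.37 without the 2 arrays farthest from the median, and Tnfsf11 with Tnfrsf11b -0.054 after a renewed quantile normalization. Signals of Lta and Cd40lg near background limit what their differences can show.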
